A study of Mus musculus with 26 samples.

Results

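The genes described here are 49 genes of mitosis, a list of symbols with no threshold on their values, drawn up with earlier results of these data known. Every symbol had a row in the RNA tables (20430 gene symbols) and in the footprint tables (19941 gene symbols). All 49 passed the filter on low counts in each fit, among 12747 genes tested in the heat RNA libraries, 13256 in the other RNA libraries and 10545 in the footprint libraries. They were ordered by role into CDK1 with its cyclins, phosphatases and FOXM1 (7 genes), mitotic kinases and the chromosomal passenger complex (8), the spindle checkpoint (5), the anaphase-promoting complex and sister separation (6), the centromere and kinetochore (6), spindle motors and microtubule proteins (5), cytokinesis (5) and chromosome structure (7).

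Entry into mitosis is driven by the kinase CDK1 bound to cyclin B, after CDC25 phosphatases remove its inhibitory phosphates. The checkpoint then holds the anaphase-promoting complex inactive until every kinetochore is attached to the spindle, after which securin and the cyclins are destroyed, separase cuts cohesin and the cell divides. In dividing cells many of these genes are transcribed mainly in G2 and M phase through promoters that carry NF-Y boxes and a CHR (cell cycle genes homology region), which the MuvB complex binds, as part of DREAM in resting or p21-arrested cells and as part of MYBL2-MuvB and FOXM1-MuvB in cycling cells.

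The cells were NIH3T3, an established line of mouse embryonic fibroblasts, and the study placed them under heat, oxidative or osmotic stress. RNA libraries of polyA-selected mRNA covered 8 groups of 2 libraries: a heat control, 44 °C for 2 h, 42 °C for 8 h, a control shared by the H2O2 and KCl treatments, H2O2 for 2 h, H2O2 for 7 h, KCl for 2 h and KCl for 7 h. Ribosome footprints, the mRNA fragments covered by ribosomes, covered the last 5 of these groups, also with 2 libraries each. No genotype differed between groups, the sources used here state no dose of H2O2 or KCl, and nothing in the labels says whether replicates came from separate cultures, so p-values measure the spread between these libraries, which may be technical.

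Total counts ran from 24441877 to 45244430 in RNA libraries and from 1460751 to 5168537 in footprint libraries, and the lowest and the highest of the footprint totals were both libraries of 2 h of H2O2. All 10 fibroblast markers of the list were detected. Cd3e was at 0 in every RNA library and Ptprc at 0.05 TPM (a transcript's share of all transcripts, scaled for length) or less, while Cd68 ran from 5.32 to 44.68 TPM and Krt18 from 6.46 to 17.19 TPM. The summed level of the fibroblast markers was between 10378 and 10387 TPM in the H2O2/KCl control and between 4783 and 4801 TPM at 7 h of H2O2, and the 3 leukocyte genes together, nearly all Cd68, stood at 9.59 to 9.98 and 42.66 to 44.70 TPM. The part of these shifts in the mitosis results was not tested. In bulk libraries a lower share of cells in mitosis and less mRNA per cell cannot be told apart.

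Promoter sequences were examined because most of the 49 genes moved together at 7 h of H2O2. The RefSeq promoter table of build GRCm38.p6 held 41 of the 49 genes among 27025 genes, with 250 bases before and 50 after each gene start. A CHR, searched as TTTGAA or TTCGAA on both strands, was present in 32 of 41 mitosis promoters (78.0%) and in 21.7% of all genes. An NF-Y box, searched as CCAAT on both strands, was present in 32 of 41 (78.0%) against 41.1% of all genes, and 21 of 41 (51.2%) held 2 or more of them against 13.3%. Both motifs together were found in 29 of 41 (70.7%) against 8.6% of all genes. E2F motifs, searched as TTCCCGC and also TTCGCGC, then TTGGCGC, which can share letters with an NF-Y box, and finally TTGCCGC, each on both strands, were in 8 of 41 (19.5%) against 10.9%. These are letter matches in a fixed window, not measured binding sites.

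The 120 bases before the gene start are printed 5′ to 3′ along the gene, with CHR and NF-Y letters of either strand in capitals. Cdk1, Ube2c, Cdc20, Espl1, Kif11 and Top2a are shown as a selection from the 16 mitosis genes with a CHR before the start (the other 16 of the 32 carry it only after the start). All of this selection hold both motifs in the printed stretch, which does not stand for all 16. Kif2c has a CHR at -103 and no NF-Y box, and Ncapg has its NF-Y box at -176. Plk1 and Nusap1 are shown because their RNA fell most at 7 h of H2O2, and Spc25 and Pttg1 because theirs rose.
Cdk1 (chr10:69352913-69353032, minus strand): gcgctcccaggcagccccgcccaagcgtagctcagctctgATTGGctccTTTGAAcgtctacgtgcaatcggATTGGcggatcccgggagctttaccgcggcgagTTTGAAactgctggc
Ube2c (chr2:164769809-164769928, plus strand): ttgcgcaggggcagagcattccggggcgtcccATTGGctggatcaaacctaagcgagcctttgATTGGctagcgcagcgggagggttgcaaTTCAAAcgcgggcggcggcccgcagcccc
Cdc20 (chr4:118437344-118437463, minus strand): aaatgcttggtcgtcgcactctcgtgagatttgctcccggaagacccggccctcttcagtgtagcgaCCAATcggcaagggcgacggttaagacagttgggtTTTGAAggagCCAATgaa
Espl1 (chr15:102296173-102296292, plus strand): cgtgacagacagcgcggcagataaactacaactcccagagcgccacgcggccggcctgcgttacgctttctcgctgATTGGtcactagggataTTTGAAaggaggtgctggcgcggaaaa
Kif11 (chr19:37376262-37376381, plus strand): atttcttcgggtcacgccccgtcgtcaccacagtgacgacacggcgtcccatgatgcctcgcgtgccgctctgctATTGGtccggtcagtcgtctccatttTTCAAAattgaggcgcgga
Top2a (chr11:99024190-99024309, minus strand): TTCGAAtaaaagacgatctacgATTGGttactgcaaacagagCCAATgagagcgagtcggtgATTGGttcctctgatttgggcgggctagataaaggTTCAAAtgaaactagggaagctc
Plk1 (chr7:122159315-122159434, plus strand): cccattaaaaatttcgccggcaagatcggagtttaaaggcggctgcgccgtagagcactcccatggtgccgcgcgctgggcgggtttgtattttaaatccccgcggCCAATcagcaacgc
Nusap1 (chr2:119618178-119618297, plus strand): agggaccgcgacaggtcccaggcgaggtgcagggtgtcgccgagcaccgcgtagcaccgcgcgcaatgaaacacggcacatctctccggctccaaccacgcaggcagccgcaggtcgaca
Spc25 (chr2:69206214-69206333, minus strand): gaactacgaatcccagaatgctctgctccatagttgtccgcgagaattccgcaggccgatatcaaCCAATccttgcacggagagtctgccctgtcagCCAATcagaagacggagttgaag
Pttg1 (chr11:43425982-43426101, minus strand): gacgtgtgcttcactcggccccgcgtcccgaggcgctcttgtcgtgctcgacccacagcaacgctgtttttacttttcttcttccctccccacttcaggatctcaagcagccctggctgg

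In Kif11 the CHR lies at position -19 and the NF-Y box at -45, counted from the gene start, and in Espl1 they lie at -27 and -44. Plk1 has an NF-Y box at -14, and its CHR at 31 lies after the start and outside the stretch printed. Nusap1 and Pttg1 hold none of the 3 motifs in the window. Spc25 holds NF-Y boxes at -55 and -23 and a CHR at 25. Of the 26 genes with a promoter in the table whose RNA was lower at 7 h of H2O2 by a log2 change of 1 or more, 21 (80.8%) held a CHR, and of the other 15 genes 11 (73.3%) did.

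The first comparison asked how RNA of the mitosis genes differed from control after H2O2. At 2 h, 39 of 49 were lower and 0 were higher in the edgeR test (adjusted p under 0.05), where 26.5% of all genes tested were lower and 27.3% higher. At an unadjusted p under 0.05, 40 were lower and 0 higher, beside 59% of all genes tested in either direction. DESeq2 and limma on log2(TPM + 1) also called 0 higher, where limma called 3284 of all genes tested higher. The median log2 change of the 49 genes was -0.32, that of all genes -0.00095. At 7 h, 46 were lower and 2 higher, beside 31.1% and 39.4% of all genes tested, and the median log2 change was -1.25 against 0.08 for all genes. A fall by a log2 change of 1 or more was called in 30 of the 49, and in 6.93% of all genes. The 49 genes held 0.866% and 0.864% of all counts in the control libraries, 0.666% and 0.677% at 2 h, and 0.382% and 0.383% at 7 h. In 46 genes both libraries of 7 h lay below both control libraries, and this held for 38.9% of all genes. Between 2 h and 7 h of H2O2, 41 were lower and 4 higher at 7 h (36.1% and 37.3% of all genes tested), with a median log2 difference of -0.94.

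**Figure D1:**
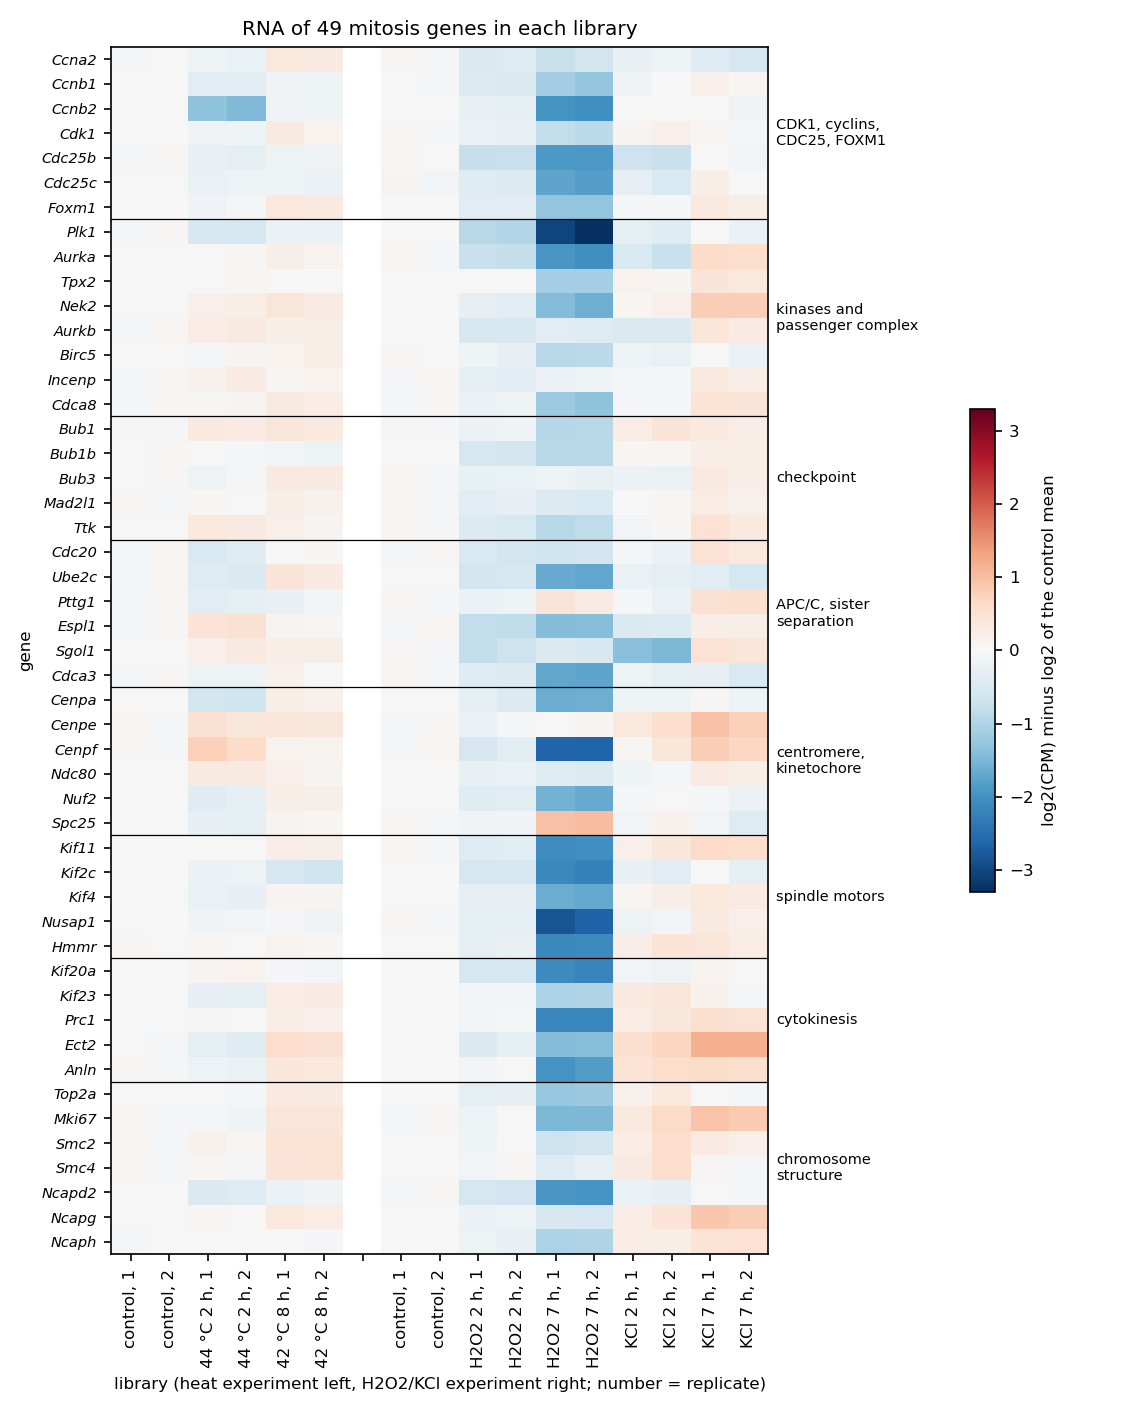
RNA of the 49 mitosis genes in the 16 RNA libraries as log2 CPM (counts scaled to library size) minus log2 of the control mean of the same experiment, with genes in rows by role and libraries in columns. The columns of 7 h of H2O2 are blue in nearly every row, with a lowest log2 change of -3.15 for Plk1, and Spc25 is the clear red exception.

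Levels per library are given as CPM, counts scaled to the TMM-normalized library size and not to gene length. Among the 7 genes of CDK1 and its partners, all 7 were lower at 2 h and all 7 at 7 h. Ccnb1, the cyclin B that activates CDK1, was at 266 and 257 CPM in control, 193 and 189 after 2 h and 118 and 108 after 7 h of H2O2. Its groups did not overlap and its log2 change was -0.46 ± 0.07 (SE) at 2 h and -1.22 ± 0.07 at 7 h (adjusted p = 1.01e-09). Ccna2, cyclin A, which acts from S phase into early mitosis, went from 281 and 268 CPM to 199 and 206 and then 165 and 180, a log2 change of -0.67 ± 0.07 at 7 h. Within the group Ccna2 had the smallest change and Ccnb2, a further cyclin B, the largest at 7 h: 102 and 104 CPM in control, 87.1 and 83.4 at 2 h and 26.1 and 25.3 at 7 h, a log2 change of -2.00 ± 0.06. The phosphatase genes Cdc25b and Cdc25c had log2 changes of -1.91 and -1.78 at 7 h, Foxm1, a transcription factor of G2 and M genes, of -1.30, and Cdk1 itself of -0.84.

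Of the 8 kinase and passenger complex genes, 7 were lower at 2 h and all 8 at 7 h. Plk1, the Polo-like kinase needed for mitotic entry and spindle assembly, showed the largest change of all 49 at both times. It stood at 130 and 133 CPM in control, at 70.2 and 67.3 at 2 h and at 16.1 and 13.5 at 7 h, a level 8.87-fold lower than control (log2 change -3.15 ± 0.09, adjusted p = 1.16e-12). Aurka, the spindle pole kinase, was lower at 2 h already, with 116 and 110 CPM in control and 67.3 and 65.1 at 2 h. Tpx2, its activator, was the gene of this group not called at 2 h, with 306 and 303 CPM in control and 304 and 307 at 2 h. At 7 h Tpx2 was at 139 in both libraries and had a log2 change of -1.14 ± 0.06. The passenger complex, which corrects faulty kinetochore attachments, did not move as a block: Cdca8 had a log2 change of -1.25 at 7 h and Birc5 of -0.91, whereas its kinase Aurkb had -0.40 and its scaffold Incenp -0.17. Birc5, also called survivin, went from 112 and 109 CPM in control to 99.5 and 91.6 at 2 h and 57.9 and 59.3 at 7 h. Its call at 2 h was lost without replicate 1 of the control (adjusted p = 0.0967) or without replicate 2 of 2 h of H2O2 (adjusted p = 0.174).

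The 5 checkpoint genes were all lower at both times, and none by a log2 change of 1. Bub3, which recruits BUB1 and BUBR1 to kinetochores, was at 139 and 131 CPM in control, 113 and 115 at 2 h and 121 and 113 at 7 h. Its 7 h change of -0.21 ± 0.06 was lost without replicate 1 of the control (adjusted p = 0.0858) or replicate 2 of 7 h of H2O2 (adjusted p = 0.101), and its 2 h change without replicate 1 of the control (adjusted p = 0.0502). Mad2l1, the checkpoint protein that binds CDC20, was at 89.6 and 84.9 CPM in control, 68.5 and 71.8 at 2 h and 64.1 and 61.2 at 7 h, a log2 change of -0.48 ± 0.06. The kinase genes Bub1 and Ttk and the pseudokinase gene Bub1b lay between -0.93 and -0.88 at 7 h.

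In the group of the anaphase-promoting complex and sister separation, 5 of 6 were lower at each time and Pttg1 was not. Ube2c, the ubiquitin-conjugating enzyme of the complex, went from 151 and 155 CPM in control to 101 and 103 at 2 h and 48.3 and 46.7 at 7 h, a log2 change of -1.69 ± 0.07. Cdc20, its mitotic activator, went from 168 and 179 to 122 and 115 and then 110 and 113 CPM, so that most of its log2 change of -0.64 ± 0.07 at 7 h was present at 2 h, and the difference between 2 h and 7 h was not called (adjusted p = 0.27). Pttg1, securin, the inhibitor of separase, was at 16.6 and 15.9 CPM in control, 13.9 and 14.5 at 2 h and 22 and 19.6 at 7 h. It rose by a log2 change of 0.36 ± 0.08 (adjusted p = 0.00147) while Espl1, separase, fell by 1.42 on the log2 scale. Sgol1, shugoshin, which protects centromeric cohesin, was lowest at 2 h: 56.9 and 53.6 CPM in control, 31.6 and 34.7 at 2 h and 39.5 and 38.3 at 7 h. Its difference between 2 h and 7 h, a log2 value of 0.23, was lost without replicate 1 of 2 h (adjusted p = 0.121) or replicate 1 of 7 h of H2O2 (adjusted p = 0.0751).

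The centromere and kinetochore genes held the widest range, from -2.64 to 0.99 on the log2 scale at 7 h. Cenpf, a large kinetochore and microtubule-binding protein, was at 79.9 and 88.6 CPM in control, 57.0 and 66.2 at 2 h and 13.4 and 13.6 at 7 h, a 6.24-fold lower level. Spc25 rose instead. It was at 43.0 and 39.7 CPM in control, 37.8 and 38.3 at 2 h and 81.2 and 83.2 at 7 h, a log2 change of 0.99 ± 0.09 (adjusted p = 2.45e-07). Spc25 is a subunit of the NDC80 complex, which ties kinetochores to microtubules, and its partners in the same complex went the other way: Ndc80 was at 70.8 and 70.0 CPM in control and 53.4 and 51.5 at 7 h (log2 change -0.42 ± 0.06), and Nuf2 had a log2 change of -1.60. Cenpa, the histone H3 variant of centromeres, went from 111 and 115 CPM to 90.3 and 82.7 and then 36.2 and 37.3. Cenpe, a kinetochore motor, was the only one of the 49 not called at 7 h, with 141 and 151 CPM in control and 146 and 156 at 7 h (log2 change 0.05 ± 0.09).

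All 5 spindle motor and microtubule genes were lower at 2 h and all 5 fell by a log2 change of 1.66 or more at 7 h, the lowest group median (-2.11). Nusap1, a microtubule-bundling protein, was at 109 and 100 CPM in control, 84.3 in both libraries at 2 h and 14.7 and 16.4 at 7 h, a 6.76-fold lower level. Kif11, the motor that pushes spindle poles apart, went from 212 and 201 to 155 and 163 and then 49.3 and 51.0 CPM. Kif2c, a microtubule depolymerase, went from 122 and 118 to 82.4 in both libraries and then 27.6 and 25.4.

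Cytokinesis genes showed a late change: 2 of 5 were lower at 2 h (median -0.10) and all 5 by a log2 change of 1 or more at 7 h (median -1.91). Anln, the actin-binding protein anillin of the contractile ring, was at 371 and 367 CPM in control, 348 and 369 at 2 h and 94.5 and 102 at 7 h. Prc1, which bundles the central spindle, was at 210 and 205, then 193 and 200, then 46.9 and 46.4 CPM, so its 4.44-fold lower level at 7 h arose almost wholly after 2 h. Kif20a, a central spindle motor, differed from both in being lower at 2 h already: 300 and 292 CPM in control, 199 in both libraries at 2 h and 68.5 and 65.5 at 7 h.

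Of the 7 chromosome structure genes, 4 were lower at 2 h and all 7 at 7 h. Top2a, the topoisomerase that untangles sister DNA, was the most abundant by counts: 694 and 697 CPM in control, 552 and 578 at 2 h and 292 and 296 at 7 h (log2 change -1.24 ± 0.07). Smc4, a core subunit of condensin, the complex that compacts chromosomes, was at 392 and 404 CPM in control, 372 and 410 at 2 h and 299 and 338 at 7 h. Its 7 h change of -0.32 ± 0.09 was lost without replicate 1 of 7 h of H2O2 (adjusted p = 0.0586). The condensin subunits ranged from that value to -1.93 for Ncapd2, and Mki67, the proliferation antigen Ki-67 that coats mitotic chromosomes, had a log2 change of -1.49.

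**Figure D2:**
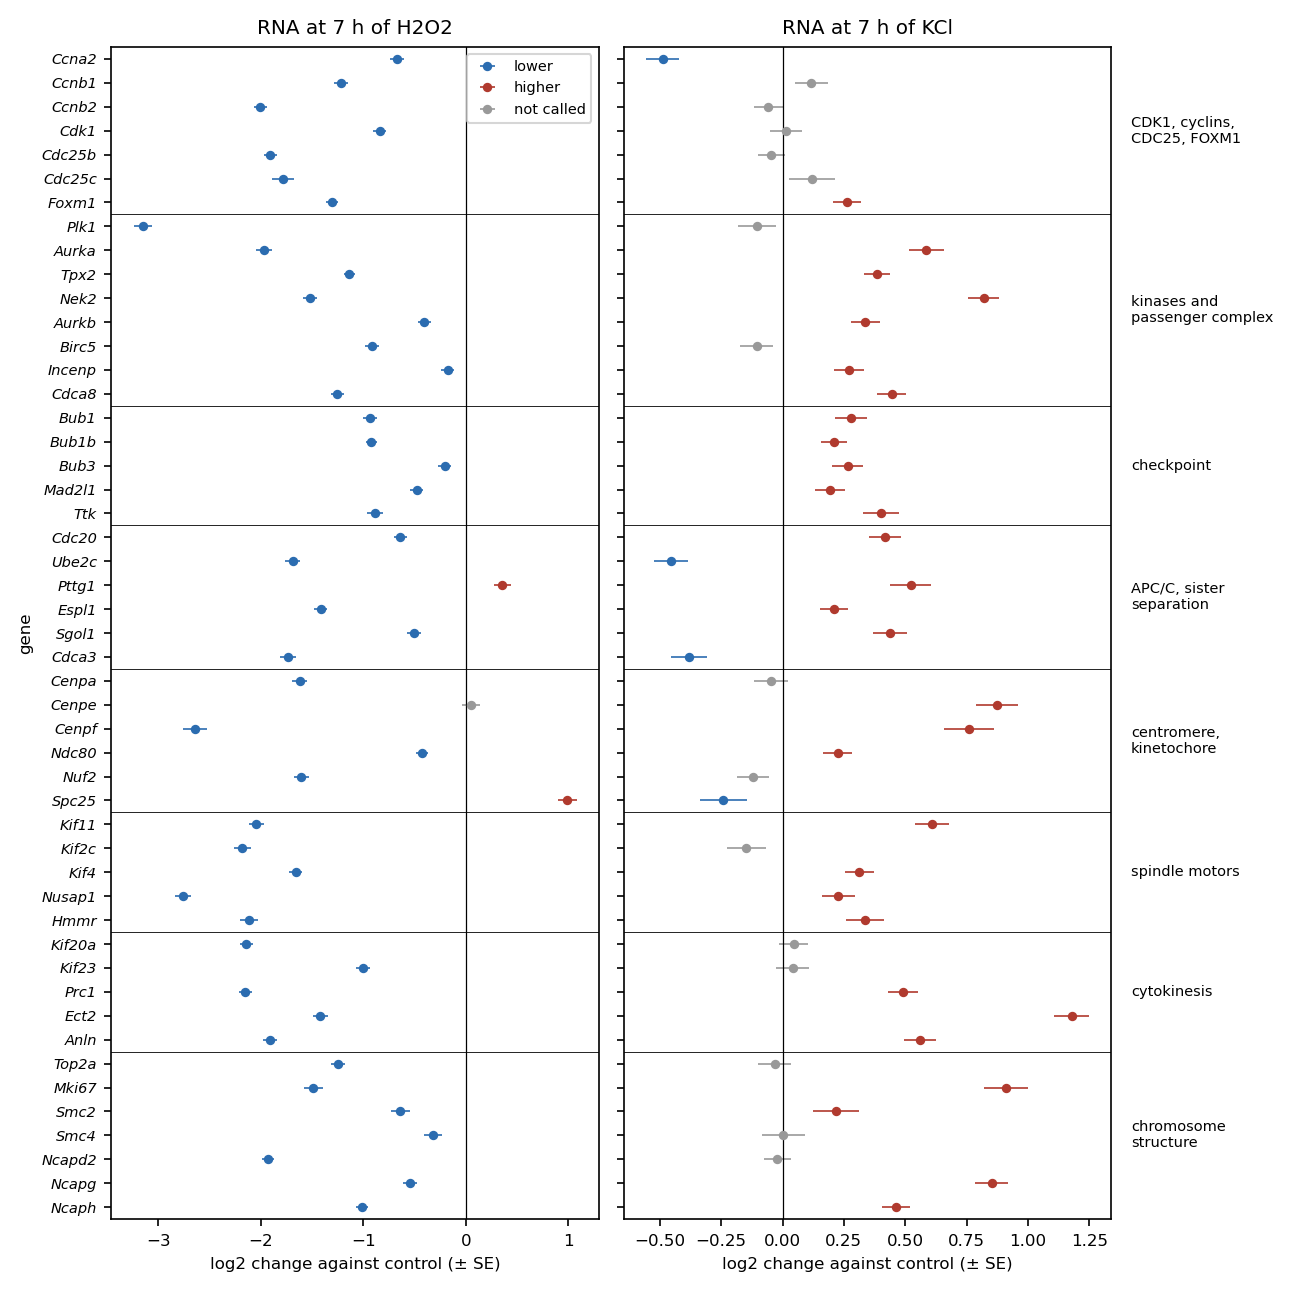
Log2 change of RNA against the shared control with its standard error for each of the 49 genes, ordered by role, at 7 h of H2O2 (left) and 7 h of KCl (right), with blue and red for genes called lower and higher and grey for the rest. The horizontal scales differ: values run from -3.15 to 0.99 with H2O2 and from -0.49 to 1.18 with KCl.

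With KCl, an osmotic stress, the same genes did not fall as a group. At 2 h, 14 were lower and 14 higher of 49 (27.0% and 27.2% of all genes tested). On log2(TPM + 1) tested with limma the split was 22 lower and 11 higher, where 4540 of 13256 genes tested were lower and 2567 higher. The median on that scale was -0.12 for the 49 genes and -0.07 for all genes. At 7 h, 4 were lower and 30 higher (31.6% and 37.2% of all genes tested), with a median log2 change of 0.23 against 0.04 for all genes. On log2(TPM + 1) 10 were lower and 24 higher with a median of 0.12 against -0.03 for all genes, of which 4806 were lower and 4027 higher. The 49 genes held 0.811% and 0.850% of all counts at 2 h and 0.945% and 0.883% at 7 h. Between 2 h and 7 h of KCl, 6 were lower and 32 higher at 7 h (33.7% and 35.1% of all genes tested).

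Counts at 2 h of KCl are given by role. Of the 7 genes of the CDK1 group 3 were lower and 0 higher, of the 8 kinase and passenger genes 4 and 0, of the 5 checkpoint genes 1 and 1, and of the 6 genes of the anaphase-promoting complex and sister separation 4 and 0. Of the 6 kinetochore genes 0 were lower and 1 higher, of the 5 spindle motor genes 1 and 2, of the 5 cytokinesis genes 0 and 4, and of the 7 chromosome structure genes 1 and 6. No test of the difference between roles was run. Among these calls, that of Top2a (769 and 888 CPM against 694 and 697) was lost without replicate 2 of 2 h of KCl (adjusted p = 0.0903) and on log2(TPM + 1) (adjusted p = 0.0771). Those of Ccna2 and Bub3 were lost without replicate 1 of the control (adjusted p = 0.0927 and 0.0858), and that of Ccna2 also without replicate 1 of 2 h of KCl (adjusted p = 0.0656). The call of Birc5 was lost without either control library (adjusted p = 0.124 and 0.0619) or replicate 2 of 2 h of KCl (adjusted p = 0.108). On log2(TPM + 1) those of Birc5 and Kif11 were lost as well (adjusted p = 0.0631 and 0.051). The largest change was that of Sgol1, from 56.9 and 53.6 CPM in control to 21.4 and 19.9, a log2 change of -1.42 ± 0.08 (adjusted p = 2.59e-09), and at 7 h it stood at 77.3 and 72.4, above both control libraries. Ect2, which activates RhoA at the cell equator in cytokinesis, was at 168 and 166 CPM in control, 239 and 273 at 2 h and 379 and 376 at 7 h. Its log2 change at 7 h of 1.18 ± 0.07 (adjusted p = 5.56e-09) was the largest rise among the 49. Anln was at 501 and 551 CPM after 2 h and 558 and 529 after 7 h of KCl, above its control values of 371 and 367.

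**Figure D3:**
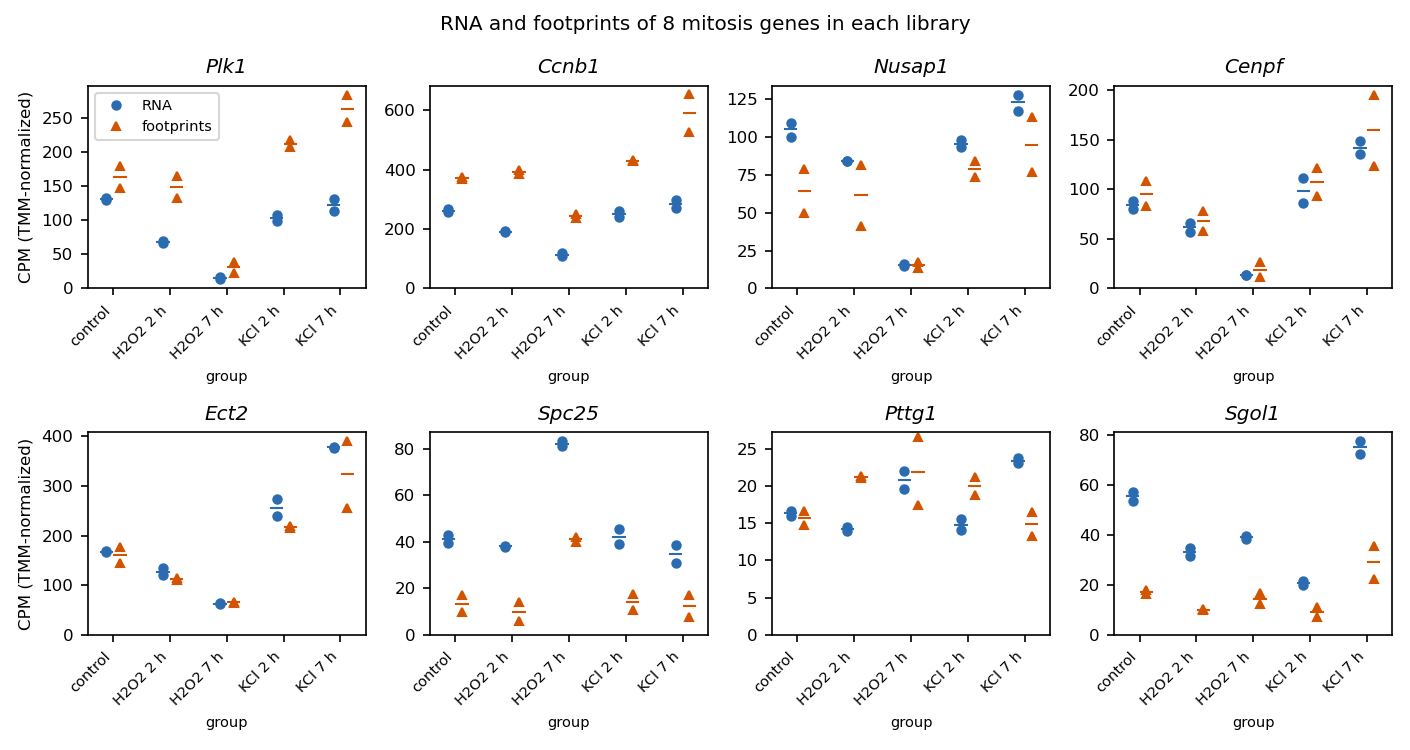
CPM of 8 mitosis genes in each library of the H2O2/KCl experiment, with circles for RNA and triangles for footprints, a short line at each group mean and axes that start at 0. Plk1, Nusap1 and Cenpf are lowest at 7 h of H2O2, Ect2 is highest at 7 h of KCl, Spc25 is highest at 7 h of H2O2 and Sgol1 is lowest in RNA at 2 h of KCl.

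The 4 genes lower at 7 h of KCl were Ccna2, Ube2c, Cdca3 and Spc25. Ccna2 was at 205 and 186 CPM against 281 and 268 in control (log2 change -0.49 ± 0.07), and Ube2c at 121 and 103 against 151 and 155 (log2 change -0.45 ± 0.07). Cdca3, a trigger of mitotic entry, was at 78.4 and 67.5 CPM against 99.2 and 91.1. Spc25 was at 38.7 and 31.0 CPM against 43.0 and 39.7, and its call was lost without replicate 1 of the control (adjusted p = 0.205) or replicate 2 of 7 h of KCl (adjusted p = 0.411). Ccnb1 (296 and 272 CPM), Cdk1 (184 and 170), Plk1 (131 and 114) and Top2a (698 and 661) were not called at 7 h of KCl. Among the 30 called higher, Cdc20 was at 242 and 222 CPM, Tpx2 at 407 and 388 and Kif11 at 322 and 308, each above both of its control libraries.

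Both treatments were compared with each other directly. At 2 h, 37 of 49 were lower with H2O2 than with KCl and 1, Sgol1, was higher by a log2 difference of 0.68 ± 0.08 (24.2% and 27.0% of all genes tested). At 7 h, 47 were lower with H2O2 and 1, Spc25, was higher by 1.23 ± 0.10 (37.4% and 41.0% of all genes tested), and the median log2 difference was -1.47. The largest differences at 7 h were those of Cenpf (-3.40 ± 0.12) and Plk1 (-3.04 ± 0.09). Pttg1, at -0.16 ± 0.08, was not called (adjusted p = 0.088).

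Heat gave smaller and mixed changes. At 44 °C for 2 h, 20 genes were lower and 11 higher (35.7% and 35.4% of all genes tested) and the median log2 change was -0.03. All 7 genes of the CDK1 group had negative changes and 6 were called. Ccnb2 had the largest change, from 123 and 126 CPM in the heat control to 49.6 and 44.9, a log2 change of -1.39 ± 0.05 (adjusted p = 2.8e-11). Its relative Ccnb1 went from 216 and 211 to 168 in both libraries (log2 change -0.35 ± 0.04), and Plk1 from 121 and 127 to 85.7 and 84.9. Cenpf rose from 134 and 125 to 225 and 199 CPM (log2 change 0.71 ± 0.06), and Espl1 from 134 and 142 to 187 and 196 (log2 change 0.47 ± 0.04). The kinetochore group thus held Cenpf, Cenpe and Ndc80 above control and Cenpa, Nuf2 and Spc25 below it: Cenpa went from 97.8 and 99.8 CPM to 65.2 and 62.2.

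At 42 °C for 8 h the direction of the set depended on the scale. With TMM-normalized counts 8 genes were lower and 28 higher (31.9% and 31.7% of all genes tested) and the median log2 change was 0.17. Limma on log2(TPM + 1) called 15 lower and 12 higher, where 6287 of 12747 genes tested were lower and 1945 higher. The median over all genes moved from -0.01 with TMM-normalized counts to -0.16 here, and the set had a median of -0.02. Compared with all genes, the set lay higher on both scales. Kif2c had the largest change on TMM-normalized counts, from 123 and 126 CPM to 83.8 and 78.2 (log2 change -0.61 ± 0.05). Ect2 went from 154 and 149 to 227 and 217 CPM (log2 change 0.55 ± 0.05), and Top2a from 735 and 725 to 916 and 904. Ccnb2 stood at 115 and 112 CPM, near its control values, so that between the heat treatments it differed by 1.26 ± 0.05 on the log2 scale. In that comparison 31 genes were higher at 42 °C for 8 h than at 44 °C for 2 h and 7 lower. The shares of all genes tested were 37.9% and 37.2%. On log2(TPM + 1) 14 were higher and 20 lower, where 2764 of all genes tested were higher and 6798 lower. The median on that scale was -0.02 for the set and -0.20 for all genes. Relative to all genes the set thus lay higher at 42 °C than at 44 °C on both scales. Temperature and time differ together between these groups and cannot be told apart.

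**Figure D4:**
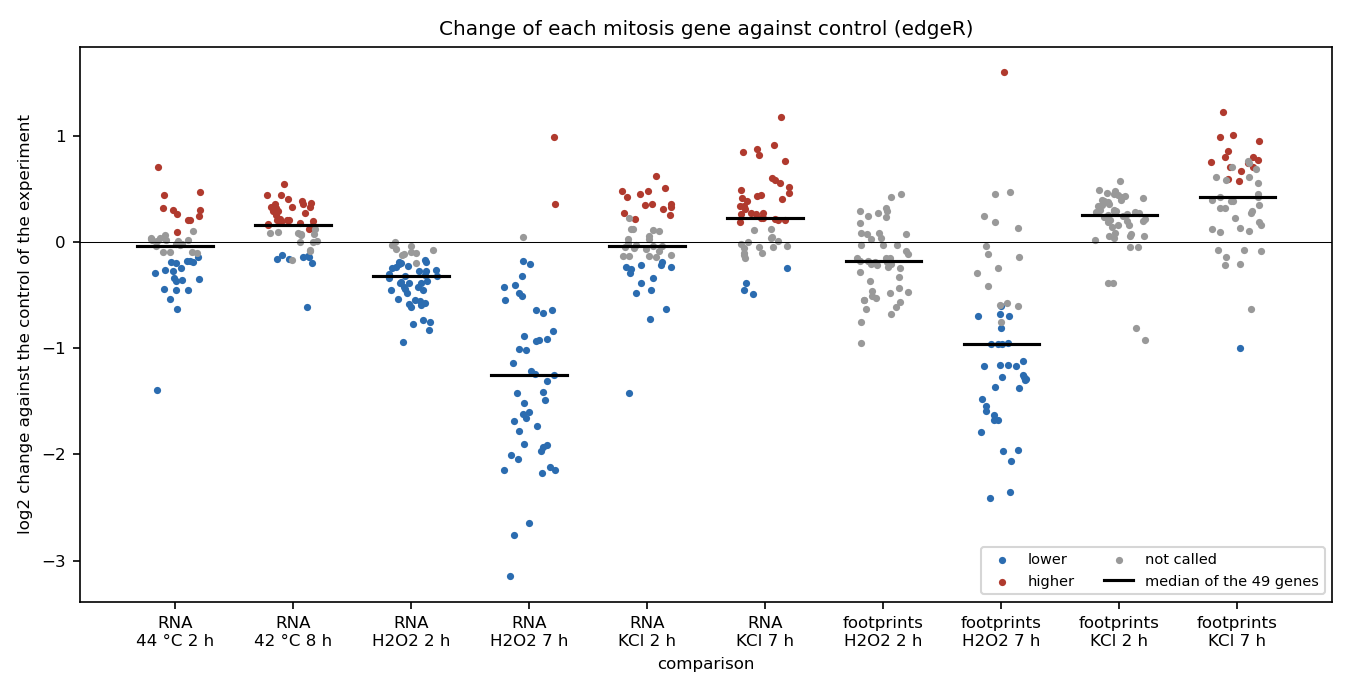
Log2 change of each of the 49 genes against the control of its experiment in 6 RNA and 4 footprint comparisons, coloured by the edgeR call, with a bar at the median of the 49. Medians are -1.25 for RNA and -0.96 for footprints at 7 h of H2O2, and the other medians lie between -0.32 and 0.43.

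Heat and H2O2 do not share control libraries, so their changes could be set side by side over the 49 genes as a description. The Pearson correlation with the change at 7 h of H2O2 was 0.197 for 44 °C and 0.304 for 42 °C, 0.335 between 42 °C and 7 h of KCl, and 0.0479 between 44 °C and 2 h of KCl. A positive value is no shared direction: between 42 °C and 7 h of H2O2 the sign was the same in 12 of 49 genes. Genes are not independent replicates, and all points share the same libraries.

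Ribosome footprints of the mitosis genes were fewer at 7 h of H2O2 as well. In footprints 33 of 49 were lower and 1, Spc25, was higher (10.6% and 17.2% of all genes tested), with a median log2 change of -0.96 against 0.0075 for all genes. On log2(TPM + 1) 28 were lower and 1 higher, where 640 of 10545 genes tested were lower and 1853 higher. The median on that scale was -0.83 for the 49 genes and 0.11 for all genes. At 7 h the footprint change followed the RNA change over the 49 genes with a Pearson correlation of 0.945 and a Spearman correlation of 0.93, across genes measured in separate RNA and footprint libraries of the same treatments. With 7 h of KCl the values were 0.682 and 0.763. Plk1 had 148 and 180 CPM of footprints in control and 39.3 and 22.5 at 7 h, the largest footprint change (log2 -2.41 ± 0.25, adjusted p = 1.76e-05). Spc25 had 17.1 and 9.89 CPM in control and 40.1 and 42.3 at 7 h, a log2 change of 1.6 ± 0.39 (adjusted p = 0.0077) that was lost without replicate 2 of the control (adjusted p = 0.0714). Every one of the 5 motor and 5 cytokinesis genes was lower in footprints. Kif20a went from 375 and 431 to 132 and 119 CPM and Prc1 from 225 and 236 to 64.9 and 53.9. Cdc20, lower in RNA, was not called in footprints, with 199 and 299 CPM of footprints in control and 247 and 301 at 7 h (log2 change 0.14 ± 0.25, adjusted p = 0.725). Between 2 h and 7 h of H2O2, 29 genes were lower in footprints at 7 h and 2 higher, Spc25 and Cenpe (11.1% and 18.7% of all genes tested), the latter lost without replicate 1 of 2 h (adjusted p = 0.0665) or replicate 1 of 7 h of H2O2 (adjusted p = 0.0792).

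At 2 h of H2O2 edgeR called 0 of 49 genes in footprints (0.768% of all genes tested were lower and 1.14% higher). At an unadjusted p under 0.05, 9 were lower and 0 higher, beside 17.1% of all genes tested in either direction. DESeq2 called 1 of the 49 and limma on log2(TPM + 1) called 0. The median log2 change of the 49 genes was -0.18. The libraries of this group held 1460751 and 5168537 counts, and edgeR also called 0 with either of them left out. At 2 h of KCl edgeR also called 0 (5.06% and 1.79% of all genes tested), and either other tool called 0. At an unadjusted p under 0.05, 2 were lower and 6 higher, beside 20.2% of all genes tested in either direction. H2O2 against KCl at 2 h gave 3 lower, Ect2, Top2a and Ncapg, and 0 higher in footprints (2.10% and 3.03% of all genes tested). At an unadjusted p under 0.05, 23 were lower and 0 higher, beside 21.3% of all genes tested in either direction. That count of 3 became 0 without replicate 1 of 2 h of H2O2 or either library of 2 h of KCl and 6 without replicate 2 of 2 h of H2O2, and was 6 with DESeq2 and 1 with limma. At 7 h, 41 genes were lower with H2O2 than with KCl in footprints and 1, Spc25, higher (17.8% and 23.5% of all genes tested), the latter lost without replicate 1 of 7 h of KCl (adjusted p = 0.0541).

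At 7 h of KCl 15 genes were higher in footprints and 1, Cdc25b, lower (10.5% and 9.83% of all genes tested), with a median log2 change of 0.43. On log2(TPM + 1) tested with limma 8 were higher and 0 lower, where 785 of all genes tested were higher and 904 lower. Aurka had the largest rise, from 90.5 and 96.4 CPM in control to 184 and 252 (log2 change 1.22 ± 0.23, adjusted p = 0.0034), and Ect2 went from 144 and 177 to 255 and 391. These counts rest on single libraries. Replicate 2 of 7 h of KCl gave 1.07% of its counts to the 49 genes and replicate 1 gave 0.840%, against 0.763% in both control libraries, and 16 calls became 2 without replicate 2. They became 4 and 6 without replicate 1 or 2 of the control, and 8 in limma on log2(TPM + 1). Cdc25b, at 27.1 and 37.9 CPM in control and 12.8 and 19.3 at 7 h, was not called with DESeq2 (adjusted p = 0.0738), nor without replicate 2 of the control, replicate 1 of 7 h of KCl or replicate 2 of 7 h of KCl (adjusted p = 0.232, 0.232 and 0.0646). Between 2 h and 7 h of KCl 6 genes were higher at 7 h and 0 lower (12.1% and 8.43% of all genes tested), and limma also called 0 lower. At an unadjusted p under 0.05, 10 were higher and 1 lower, beside 34.9% of all genes tested in either direction. The 6 became 1, 3, 2 and 2 without replicate 2 or 1 of 7 h or replicate 1 or 2 of 2 h of KCl.

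**Figure D5:**
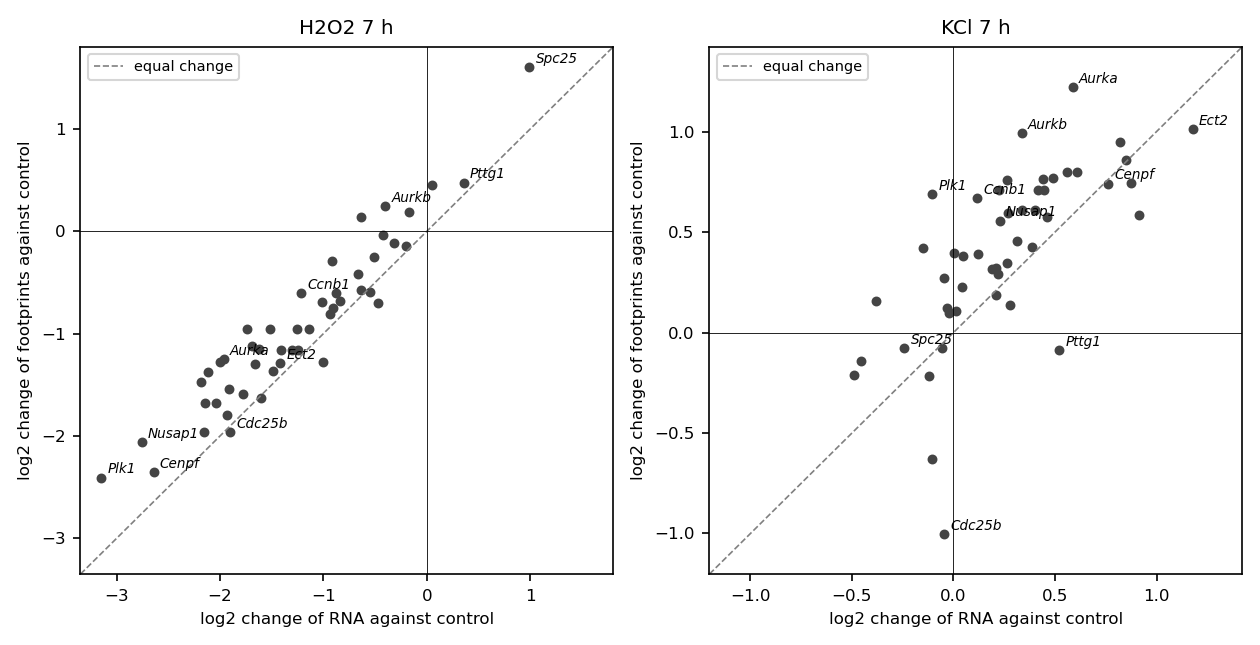
Log2 change of footprints against log2 change of RNA for the 49 genes at 7 h of H2O2 (left) and 7 h of KCl (right), with a dashed line where both are equal. At 7 h of H2O2 most points lie above the line, from Plk1 (-3.15 in RNA, -2.41 in footprints) to Spc25 (0.99 and 1.6).

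Translational efficiency, the footprint change of a gene beyond its RNA change, was tested as an interaction in a fit over the 20 libraries of both kinds. At 7 h of H2O2, 8 of 49 genes were called higher and 0 lower (4.69% and 4.57% of all genes tested), and limma also called 0 lower. At an unadjusted p under 0.05, 15 were higher and 0 lower, beside 24.3% of all genes tested in either direction. The 8 called higher were Cdca3 (log2 change 0.78 ± 0.20), Ccnb2 (0.73 ± 0.17), Kif2c (0.71 ± 0.17), Aurkb (0.66 ± 0.20), Bub1b (0.64 ± 0.17), Ccnb1 (0.61 ± 0.17), Ube2c (0.57 ± 0.17) and Nek2 (0.56 ± 0.17). By definition, a gene called higher here has a footprint change above its RNA change. Ccnb2 footprints were at 124 and 103 CPM in control and 47.0 and 46.9 at 7 h. The median over the 49 genes was 0.29, against 0.06 for all genes. On log2(TPM + 1) 12 were called higher and 0 lower, where 542 of 10480 genes tested were higher and 200 lower. The median on that scale was 0.47 for the 49 genes and 0.22 for all genes.

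The other treatments gave 5 higher at 2 h of H2O2, 4 at 2 h of KCl and 3 at 7 h of KCl, and 0 lower in each (3.98%, 3.58% and 1.69% of all genes tested higher; 7.46%, 9.18% and 3.88% lower). At an unadjusted p under 0.05 the lower counts were 0, 1 and 2 and the higher counts 14, 9 and 9. The shares of all genes tested at that threshold, in either direction, were 27.9%, 27.5% and 21.1%. Limma called 0 lower. All of these comparisons share the same control libraries. For Kif2c the log2 values with H2O2 were 0.68 at 2 h and 0.71 at 7 h, and with KCl 0.85 and 0.60. For Aurkb, in the same order, they were 0.75, 0.66, 0.66 and 0.69. The counts moved with single libraries. With 2 h of H2O2, each of the 8 libraries of the contrast moved the count by over 1.5 times: 1 gene was left without footprint control replicate 1, RNA control replicate 1 or RNA replicate 2 of the treatment, and 14 (11 higher, 3 lower) without footprint replicate 2 of the treatment. With 7 h of H2O2, 0 were left without RNA replicate 2 of the treatment, 1 to 3 without its RNA replicate 1, its footprint replicate 1, footprint control replicate 1 or either RNA control library, and 6 without each of the others. With 2 h of KCl, 8 were called without footprint control replicate 2, 3 without replicate 1 of the treatment in RNA or in footprints, and 2 without each of the others. With 7 h of KCl, 0 were left without replicate 2 of the treatment in RNA or in footprints or without either RNA control library, and 1 without RNA replicate 1 of the treatment. Footprint control replicate 1 left out gave 1 lower and 0 higher there, control replicate 2 gave 2, and footprint replicate 1 of the treatment gave 4.

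Per-length levels in the control libraries allow genes to be set beside each other. The ratio of footprint TPM to RNA TPM had a median of 0.573 and 0.537 over the 49 genes in replicates 1 and 2, beside 0.623 and 0.577 over 10854 genes with at least 1 TPM of RNA, and 20 of the 49 lay above the median of all genes. Cdk1 had the highest ratio, 2.43 and 2.80, and Bub3, Ube2c, Mad2l1, Ccnb1 and Birc5 followed with means over 1. Foxm1 (0.239 and 0.231), Cdc25b (0.209 and 0.278) and Smc4 (0.273 and 0.217) had the lowest, and the ranges of these 3 over both libraries overlap.

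The study concerns transcription that runs past the end of a gene, and the deposited calls allowed a check of the mitosis genes. Of 6399 pairs of neighbouring genes in the authors' tables, 28 had a mitosis gene upstream and 18 had one downstream. Read-in, transcription from the upstream neighbour into the gene, was called in 0 of the 18 in all 8 groups, where 0.391% to 2.17% of all pairs were called in both libraries, and the highest read-in estimate for a mitosis gene was 0.0365 (Nusap1). Spc25 and Pttg1 were not downstream in any pair. Readthrough of the mitosis gene itself was called in both libraries of the control for 5 of 28 (Ccnb1, Cdk1, Cenpa, Ncapg and Nusap1; 17.9% against 14.3% of all pairs). At 2 h of H2O2 it was called for 8 of 28 (28.6% against 20.7%), and at 7 h of H2O2 for 0 of 28 (against 11.1%). At 2 h and 7 h of KCl the numbers were 7 (25.0% against 19.0%) and 3 (10.7% against 13.1%). In the heat control they were 5 (17.9% against 15.7%), at 44 °C 5 (17.9% against 19.5%) and at 42 °C 4 (14.3% against 17.6%). RNA of the mitosis genes was itself lower at 7 h of H2O2, and its part in the missing readthrough calls was not tested.

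Other cell cycle genes are given by their counts at 7 h of H2O2. Of 60 further mitosis genes 43 were lower and 11 higher (median log2 change -0.47), where 31.1% of all genes tested were lower and 39.4% higher (median 0.08). Of 15 further subunits and regulators of the anaphase-promoting complex 7 were lower and 3 higher (-0.27). Of 33 DNA replication genes 3 were lower and 20 higher (0.21), and of 22 subunits of DREAM, MYBL2-MuvB, E2F and NF-Y complexes 4 were lower and 10 higher (0.10). At 7 h of KCl, where 31.6% of all genes tested were lower and 37.2% higher, the further mitosis genes counted 19 lower and 32 higher, the anaphase-promoting complex genes 9 and 4, the replication genes 11 and 10, and the complex subunits 8 and 8, the last 2 lists near the shares of all genes.

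Cdkn1a, which encodes the CDK inhibitor p21, was at 37.04 and 39.98 TPM in control, 124.53 and 123.64 after 2 h and 1568 and 1604 after 7 h of H2O2 (log2 change 5.45 ± 0.08 at 7 h, adjusted p = 2.85e-15), and at 12.34 and 14.44 TPM at 7 h of KCl (log2 change -1.42 ± 0.08). Mdm2, a further p53 target, rose by a log2 change of 4.88 ± 0.08 at 7 h of H2O2, and Trp53, which encodes p53, by 0.66 ± 0.07. Fzr1, the activator of the anaphase-promoting complex after mitosis, fell by 1.28 on the log2 scale, Wee1, the kinase that inhibits CDK1, by 0.51, and Lin9, a MuvB subunit, by 0.33. E2f1, Mybl2 and Rbl1 rose by 0.73, 0.47 and 0.43 on the log2 scale, and Rbl2, at -0.06, was not called. Myc was higher by 3.69 at 2 h and 2.04 at 7 h of H2O2. All of these are RNA values. In footprints at 7 h of H2O2, Cdkn1a, Mdm2, Trp53 and Rbl1 were also called higher and Fzr1 lower. Rbl2 was called higher in footprints (log2 change 0.74). Myc (-0.37), Mybl2 (-0.18), E2f1 (0.75), Lin9 (-0.31) and Wee1 (-0.24) were not called in footprints at 7 h, though Myc was higher at 2 h (1.58). Not all of these genes differed in direction of RNA between the treatments. At 7 h of KCl the log2 change of RNA was 0.43 for Mdm2, 0.69 for Lin9, -0.67 for Fzr1, -0.46 for Rbl1 and -0.19 for Mybl2. Trp53, E2f1, Rbl2, Wee1 and Myc were not called there. No part of these genes in the fall of the mitosis genes was tested.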

How the data were processed

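Per the labels' protocols, RNA libraries were made with a NEB kit from polyA-selected mRNA, and footprints were prepared as in an earlier publication. Per the submitters' processing notes, STAR, Bowtie, RSEM and mm10 were used; no version or annotation is named in the sources used here. The authors deposited expected counts per gene (all whole numbers), TPM values for the same libraries, a read-in estimate that is a ratio per pair of neighbouring genes, and true or false calls of readthrough and read-in. Another 12 columns of the tables, whose names fit no sample label, stayed out of every step.

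The expected counts went into edgeR 4.0.16 under R 4.3.3 (quasi-likelihood F test): TMM normalization, filterByExpr, Benjamini-Hochberg adjustment over all genes tested, threshold 0.05, heat and H2O2/KCl fitted separately, all groups of an experiment sharing the spread. Each SE was derived from the test, as the absolute log2 change divided by the square root of its F statistic. Translational efficiency used normalization factors within each kind of library and 10480 genes. Alternatives used DESeq2 1.42.0, limma 3.58.1 on log2(TPM + 1) (and voom for translational efficiency), no filter, a replicate term, only the groups compared, and each library left out. The tests were also run on simulated counts with fewer changed genes than were called here. That run does not measure their error in these data. Replicates of a group correlated at 0.994 to 0.996 in RNA and 0.957 to 0.978 in footprints (Pearson, log2 CPM).

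The 49 genes and the lists were chosen with earlier results of these data known. Genes named with library values were, per role, the 2 with the highest control TPM; per comparison, the largest called change and those called against the majority; and 11 cell cycle regulators. Other genes given by value were chosen after their values were seen. Promoters were searched in the RefSeq table (GRCm38.p6), and Sgol1 was matched as Sgo1.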

Additional observations from a re-analysis of the deposited data

Results flagged for a closer look

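Results in which H2O2 and KCl, each measured against the same control, differed in a direct test of the difference are listed here. In RNA 38 of the 49 mitosis genes (37 lower with H2O2, 1 higher) differed between the treatments at 2 h and 48 (47 lower, 1 higher) at 7 h. Of all genes tested in RNA, 24.2% were lower and 27.0% higher at 2 h, and 37.4% and 41.0% at 7 h. In footprints 3 differed at 2 h, all lower, and 42 (41 lower, 1 higher) at 7 h. The shares of all genes tested in footprints were 2.10% lower and 3.03% higher at 2 h, and 17.8% and 23.5% at 7 h. Against the direction of the other mitosis genes called, Sgol1 was higher with H2O2 than with KCl at 2 h by a log2 difference of 0.68 in RNA. Spc25 was higher with H2O2 at 7 h by a log2 difference of 1.23 in RNA and 1.68 in footprints.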

How the results depend on the processing

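Shares of all genes are given for the fits on all libraries only. Some counts of those fits lay near or below the shares. At 44 °C 31 of 49 were called, where 35.7% of all genes tested were lower and 35.4% higher. With KCl 28 were called at 2 h (27.0% and 27.2%) and 34 at 7 h (31.6% and 37.2%). Leaving out each library in turn gave these numbers of mitosis genes called, where a lone library is assumed to vary like the other groups. These numbers pool both directions and describe only how far each count moved. In RNA they ran from 28 to 32 at 44 °C, 26 to 32 at 42 °C, 35 to 36 between heat treatments, 33 to 36 at 2 h and 46 to 47 at 7 h of H2O2, 24 to 31 at 2 h and 31 to 34 at 7 h of KCl, 40 to 44 and 32 to 38 between times of H2O2 and of KCl, and 34 to 37 and 47 to 48 between H2O2 and KCl at 2 h and 7 h. In footprints they ran from 28 to 32 at 7 h of H2O2, 2 to 13 at 7 h of KCl, 22 to 30 and 1 to 3 between times of H2O2 and of KCl, and 0 to 6 and 34 to 40 between H2O2 and KCl at 2 h and 7 h, and stayed at 0 for both 2 h treatments. For translational efficiency they ran from 1 to 14 and 0 to 6 at 2 h and 7 h of H2O2, and 2 to 8 and 0 to 4 at 2 h and 7 h of KCl.

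Counts of calls that moved by over 1.5 times were few outside these. DESeq2 called 1 gene in footprints at 2 h of H2O2 and 6 between H2O2 and KCl at 2 h. Limma on log2(TPM + 1) called 1 in the latter, 8 in footprints at 7 h of KCl, and for translational efficiency 2 at 2 h and 0 at 7 h of KCl. Fitting only the groups compared gave 0 in footprints between H2O2 and KCl at 2 h, and left 1 translational efficiency call each for 2 h of H2O2 and 7 h of KCl. On translational efficiency with 7 h of H2O2, voom with a weight per kind of library called 5 and no filter 4, and no filter called 0 at 7 h of KCl. The cause was not tested. On log2(TPM + 1), 6 values of named genes reversed: at 42 °C against control Mad2l1 (-0.0123), Cenpa (-0.0179) and Ndc80 (-0.0539), and at 42 °C against 44 °C Ccnb1 (-0.0449), Mad2l1 (-0.0777) and Kif11 (-0.0247).

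The replicate numbers were not taken to pair the libraries, since groups share 2 numbers only and the labels name no shared batch. Deviations of same-numbered libraries correlated from -0.0531 to 0.117 in RNA. In footprints they correlated from 0.198 to 0.417 among control, 7 h of H2O2 and both KCl groups, and from -0.384 to -0.0459 between 2 h of H2O2 and each of these. With the replicate block 5 genes (1 lower, 4 higher) were called for translational efficiency at 7 h of KCl, and the block moved no other count of mitosis genes by over 1.5 times and changed 0 calls of named genes. Summing rows of a second symbol was not run, because the single candidate row, Aim1, is a symbol of several genes. Footprint totals (1460751 to 5168537) lay below RNA totals, so counting error is larger in footprints.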
